A study of Mus musculus with 90 samples.

Results

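Liver RNA of mice on night-restricted feeding (NRF) was examined for 32 genes that mark Kupffer cells and other macrophages or that belong to MHC class II antigen presentation. The genes were chosen by name, with earlier results of these data known. Each was represented by the RefSeq ID with the highest mean over all libraries, which gave 32 of the 24312 gene symbols in the table. All 32 were found, and 31 passed the filter of a mean of 0.5 RPKM (reads scaled to transcript length and to library size) in each of the 5 experiments. Ciita, the master activator of class II transcription, stayed under the filter in every experiment and was not tested.

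Kupffer cells are the resident macrophages of the liver. They line the sinusoids next to the endothelial cells, take up bacteria, dying cells, and old red cells from the blood, and are kept alive by signals through the CSF1 receptor. MHC class II molecules, α and β chains that are assembled on the invariant chain CD74, present peptides from ingested proteins to CD4+ T cells and are carried by macrophages, dendritic cells, and B cells. Glucocorticoids act on macrophages through the glucocorticoid receptor (GR), and are widely used to dampen inflammation.

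The 54 libraries each come from 1 mouse. Wild-type mice on NRF were C57BL/6 in the labels and C57BL/6N, 10 weeks old, in the methods. They were sampled without injection at ZT10, at ZT14 without food, and at ZT14 after a meal given at ZT12 (n = 2 each, ribosomal RNA removed). Mice of that strain, 10 weeks old, were injected 30 min before ZT12 and sampled at ZT14 (n = 4 each): vehicle (PBS) without food, vehicle and fed, dexamethasone (dex, a synthetic glucocorticoid, 1 mg/kg) and fed, the insulin receptor antagonist S961 and fed, and dex with S961 and fed. In the L-GRKO experiment, mice of the same age with Nr3c1 fl/fl alleles of the GR gene (C57BL/6 background in the labels, C57BL/6N in the methods) had received AAV8 with GFP or CRE under the Tbg promoter and were unfed at ZT14 (n = 4 each). In the L-IRSdKO experiment, Irs1 fl/fl Irs2 fl/fl mice of that age (C57BL/6 background in the labels, C57BL/6J in the methods) without or with Alb-Cre were all given dex and all fed (n = 4 each). In the obesity experiment, C57BL/6 mice had 10 weeks of chow or of a diet with 60% of its energy as fat, then 4 days of NRF, and were unfed or fed at ZT14 (n = 3 each). The high-fat diet began at 5 weeks of age. The Tbg promoter and Alb-Cre are active in hepatocytes, so both knockouts leave the genes of macrophages intact and measure these cells in a liver whose hepatocytes were altered. In whole liver, fewer cells of a type and less RNA per cell cannot be told apart.

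No pair of libraries of an experiment held identical values. RPKM carry no read totals, so the depth behind each value was not worked out here. The labels were borne out for GR, since Nr3c1 was at 4.41 RPKM with AAV-CRE and 14.2 with AAV-GFP, and for Irs1, at 0.199 against 4.03 RPKM in L-IRSdKO. Irs2 was at 0.77 against 2.19 RPKM there, which did not pass the test (limma adjusted p = 0.31). The L-IRSdKO libraries are on another scale, with a highest value of 674 to 914 RPKM against 18853 to 60597 in the others, so their levels are compared only with each other. Marker lists of lymphocytes and dendritic cells were low: summed over the list, B cell genes reached at most 2.68 RPKM in any library, T and NK cell genes 6.65, and dendritic cell genes 13.1, each in the L-IRSdKO experiment. Other lists were not low. In unfed vehicle-injected mice, sinusoidal endothelial genes summed to 108 to 117 RPKM, stellate cell genes to 68.3 to 119, and the 6 Kupffer cell markers to 46.9 to 60.2. All log2 fold changes are on the log2(RPKM + 0.5) scale, and a gene was called at a Benjamini-Hochberg adjusted p under 0.05 over all genes tested, in limma fits of each experiment.

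In unfed vehicle-injected mice, the invariant chain gene Cd74 had the highest level of the 32 genes, at 29.3 ± 4.79 RPKM (SD, n = 4). Clec4f, a lectin found on Kupffer cells, followed at 20.4 ± 4.32. The 3 chains of complement C1q, C1qa, C1qb, and C1qc, were between 17 and 18.6, within their spread of Clec4f, of Cd5l at 17.3 ± 0.709, and of Lyz2, lysozyme, at 16.5 ± 2.26. The class II chains H2-Aa and H2-Ab1 were near each other at 9.58 ± 2.55 and 9.53 ± 1.69, whereas Adgre1, which encodes F4/80, was at 2.59 ± 0.581 and Ptprc, the pan-leukocyte gene, at 0.852 ± 0.208. Within groups, Mrc1, the mannose receptor, varied least between mice, with a median coefficient of variation of 10.5%, and Marco, a scavenger receptor, most, with 68.1%, whereas the median over all 32 genes was 22.2%.

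The class II promoters are shown because these genes share elements that CIITA acts through. In 300 bases of RefSeq sequence on GRCm38.p6, from 250 before to 50 after the start of transcription, 25 promoters of 23 of the 32 genes were matched, H2-Aa and H2-Eb1 among them. Both hold the letters CTGATTGG of the Y box, in capitals, on the coding strand, starting at -51 in H2-Aa (chr17:34287774-34288073, minus strand) and at -62 in H2-Eb1 (chr17:34305617-34305916, plus strand).
H2-Aa: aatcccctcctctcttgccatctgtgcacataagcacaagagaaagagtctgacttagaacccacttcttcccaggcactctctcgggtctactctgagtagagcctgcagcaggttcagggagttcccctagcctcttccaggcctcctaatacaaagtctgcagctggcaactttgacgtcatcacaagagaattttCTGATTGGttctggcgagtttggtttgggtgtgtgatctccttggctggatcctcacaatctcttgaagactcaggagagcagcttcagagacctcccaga
H2-Eb1: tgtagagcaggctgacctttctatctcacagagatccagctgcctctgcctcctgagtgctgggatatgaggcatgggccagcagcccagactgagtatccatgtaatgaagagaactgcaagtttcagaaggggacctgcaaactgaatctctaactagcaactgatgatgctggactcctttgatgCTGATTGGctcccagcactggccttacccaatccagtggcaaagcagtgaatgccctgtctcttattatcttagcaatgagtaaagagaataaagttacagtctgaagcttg
Of 32851 promoters, 4.1% hold these letters on either strand. GAGGAAGT, a motif of the macrophage factor PU.1, was found on either strand in the promoters of C1qc and Ctss, against 3.2% of all promoters. The full glucocorticoid response element was found in none of the 25, and in 0.00913% of all. The form searched for was rare even where GR binds, at 0.287% of 10446 GR peaks from ChIP-seq of unfed liver. With shares this low, its absence from 25 promoters cannot show whether they differ from others or hold other forms of the element.

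Dex given before the meal was compared with vehicle in fed mice, which asks how much of the fed state changes when glucocorticoid action is kept up. Of 31 genes, 3 fell and 0 rose, against a background of 2.19% of 11251 genes called lower and 1% called higher. They were Cd5l, which encodes a secreted macrophage protein that inhibits cell death, Mrc1, and Cybb, the catalytic subunit of the phagocyte NADPH oxidase. The median log2 fold change of the 31 was -0.35, with 28 below 0, and that of all genes was -0.10.

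Cd5l (NM_009690, start at 87161803 on chromosome 3, mm9) was at 30.9, 33.3, 27.7, and 25.2 RPKM in the fed vehicle mice and at 11.7, 17.2, 17.6, and 25 RPKM with dex. All 4 dex values lay under the lowest vehicle value, the last one just under it, and the log2 fold change was -0.74 (SE 0.18, limma adjusted p = 0.03). Mrc1 (NM_008625, start at 14151041 on chromosome 2) was at 13.4, 13.3, 10.7, and 10.2 RPKM with vehicle and at 6.06, 6.75, 7.43, and 9.43 with dex. The groups did not overlap, and the difference was -0.65 (SE 0.14, limma adjusted p = 0.013). Cybb (NM_007807, start at 9046450 on chromosome X) was at 4.62, 3.72, 3.49, and 2.73 RPKM with vehicle and at 1.52, 1.72, 2.34, and 2.38 with dex, again without overlap, and its log2 fold change was -0.73 (SE 0.17, limma adjusted p = 0.02).

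The other genes did not pass the test with dex. Cd163, the scavenger receptor for haptoglobin-bound hemoglobin, had a log2 fold change of -0.66 (limma adjusted p = 0.18), and its dex values ran from 2.58 to 8.13 RPKM, the highest in replicate 4, against 4.87 to 9.26 with vehicle. Vsig4, a complement receptor, had -0.62 (adjusted p = 0.073), and Csf1r, the CSF1 receptor, -0.55 (adjusted p = 0.09). Of the class II genes, 0 of 4 passed, with log2 fold changes from -0.43 in H2-Aa to -0.20 in H2-Ab1. Fcer1g, Slc11a1, and Marco had values above 0, at 0.12, 0.05, and 0.04. Including the 3 that passed, the 2 groups did not overlap for 7 of 31 genes, all lower with dex, against 8.15% of all genes lower and 2.37% higher without overlap.

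**Figure D1:**
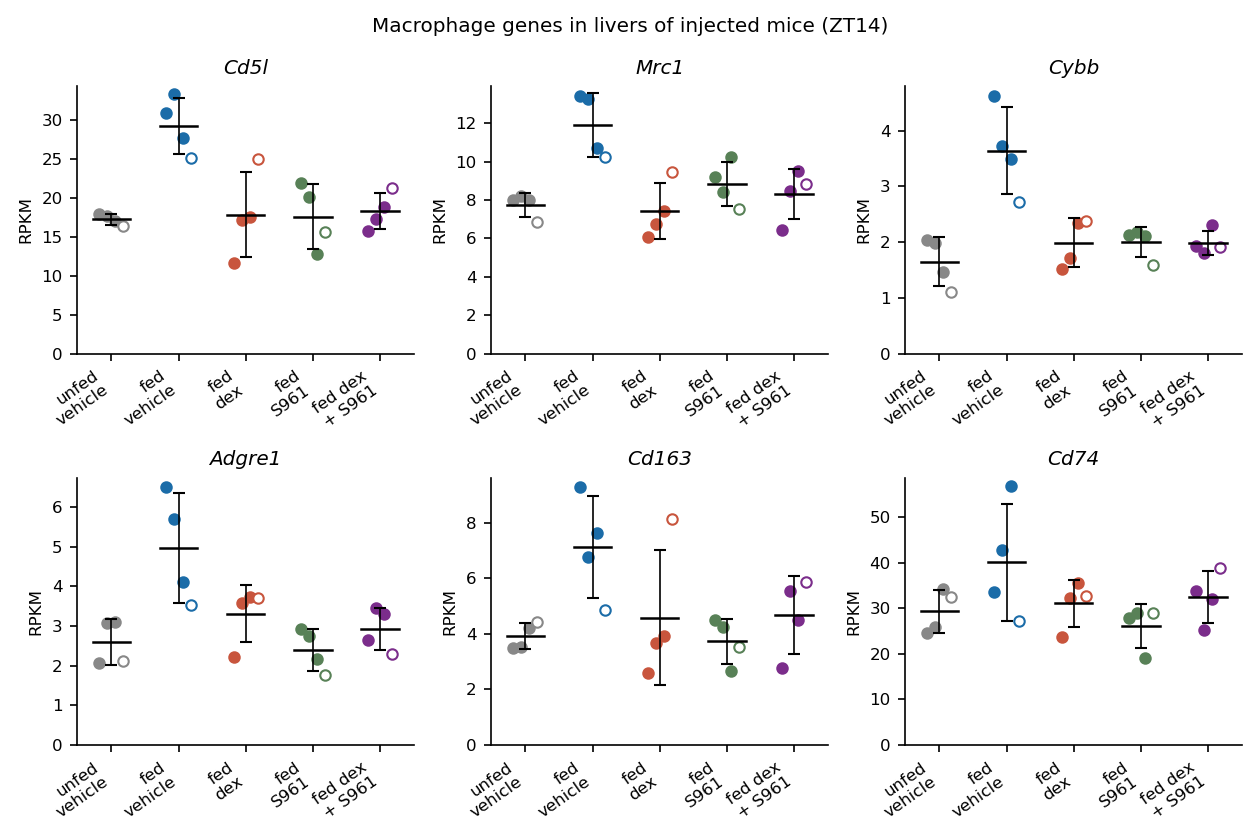
RPKM of selected genes in the 5 groups of injected mice, with 1 point per mouse (open for replicate 4) and the mean ± SD of each group (n = 4). The fed vehicle mice hold the highest group mean in each panel, for Cd5l 29.3 RPKM against 17.9 with dex.

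The dex count depended on single libraries. Without fed vehicle replicate 2, dex replicate 1, or dex replicate 2, 0 genes passed. Without fed vehicle replicate 1 there was 1, against 1.39% of all genes, and without dex replicate 4 there were 6, against 3.28%. Replicates 1 to 3 and replicate 4 carry different series of library codes in the labels. Within replicates 1 to 3 alone, 10 of the 31 genes were lower with dex, among them Cd163 at -1.11 and Cd5l at -0.98, against 5.2% of all genes in that fit. With a term for the code series there were 7, against 7.39%.

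Markers of other cells moved beside these genes. Of 10 sinusoidal endothelial genes, 3 were lower with dex, namely Kdr at -0.82, Fcgr2b at -0.71, and Clec4g at -0.47, and the summed level of the list was 87.9 to 130 RPKM with dex and 126 to 136 with vehicle. Of 12 further genes of Kupffer cells tested, 2 were lower, Folr2, a folate receptor, at -1.01 and Id3, a regulator that hepatocytes also express, at -1.17, and the sum of that list was 190 to 269 RPKM with dex and 286 to 392 with vehicle. Of 4 genes tested of recruited and lipid-associated macrophages, Clec7a, the β-glucan receptor, was lower, at -1.24. Of 7 stellate cell genes and 6 hepatocyte genes, 0 passed. The part of other cell types in the result was not tested. Of 3 glucocorticoid-induced genes all were above 0 with dex, but only Tsc22d3 passed, at 0.87 (limma adjusted p = 0.027). Fkbp5, which did not pass, was at 84.9, 101, 89.7, and 74.3 RPKM with dex. With vehicle it was at 72.4, 47.1, 83.7, and 40.2, so the groups overlapped.

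The same fed vehicle mice serve as the control for S961 and as the fed group for the meal, so those 3 comparisons share 4 libraries. With S961, 5 of the 31 genes fell and 0 rose, against 0.96% of all genes lower and 0.942% higher. Adgre1 was at 6.51, 5.71, 4.11, and 3.54 RPKM in the fed vehicle mice and at 2.92, 2.74, 2.18, and 1.77 with S961. Every S961 value was under every vehicle value, and the log2 fold change was -0.90 (SE 0.20, limma adjusted p = 0.023). Cd5l and Csf1r each changed by -0.74, Cybb by -0.71, and Ctss, the protease that trims the invariant chain, by -0.56. Cd163 had a log2 fold change of -0.84 (adjusted p = 0.13). All 31 values were below 0, with a median of -0.52 against -0.08 for all genes, and the groups did not overlap for 12 of them, against 4.44% of all genes lower and 2.04% higher without overlap. Of the 10 sinusoidal endothelial genes 0 passed, but all were below 0, with a median of -0.23, and their sum was 110 to 117 RPKM with S961 and 126 to 136 with vehicle. The part of these cells in the result was not tested. Clec7a, of the recruited macrophage list, fell by 1.01. The count was 0 without fed vehicle replicate 1, fed vehicle replicate 2, or S961 replicate 4. It was 1 without fed vehicle replicate 3 or S961 replicate 3, against 0.605% and 0.809% of all genes. Without S961 replicate 2 it was 2, against 0.551%, and without fed vehicle replicate 4 it was 9, against 1.14%. Within replicates 1 to 3 alone it was 8, against 0.988%, and with a term for the code series 10, against 2.45%.

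When vehicle-injected mice ate, 9 of 31 genes rose and 0 fell, against 2.55% higher and 0.578% lower of all genes. Cybb was at 2.03, 1.98, 1.46, and 1.11 RPKM in unfed mice, all under the lowest fed value, and rose by 0.95 (SE 0.17, limma adjusted p = 0.0062). Mpeg1, which encodes the pore-forming perforin-2 of phagosomes, went from 6.61 ± 0.715 to 12.1 ± 1.28 RPKM (n = 4 each), by 0.82 (SE 0.14, limma adjusted p = 0.0054). Adgre1, Cd5l, Timd4, Mrc1, Csf1r, Lyz2, and Ctss rose by 0.53 to 0.81. Timd4 encodes a receptor for phosphatidylserine on dying cells. The groups did not overlap for 16 genes, all higher after the meal, against 11% of all genes higher and 2.5% lower without overlap. The 10 sinusoidal endothelial genes were all above 0 as well, with a median of 0.28 and 0 passing, and their sum was 126 to 136 RPKM in fed and 108 to 117 in unfed mice, a shift whose part in the result was not tested. Of other lists, Id3 (1.11) and Sirpa (0.71) of the further Kupffer cell genes, Clec7a (1.04), and Icam1 (0.84) rose, and Nfkbia (-0.90) fell. Mpeg1 and Cybb passed in all 21 alternative fits. The number of calls fell to 2 without fed vehicle replicate 1, fed vehicle replicate 2, or unfed replicate 2, against 1.13%, 0.81%, and 0.595% of all genes. It fell to 3 without unfed replicate 1, 3, or 4, against 0.861%, 0.836%, and 2.15%. Without fed vehicle replicate 3 it fell to 5, against 1.33%. It was 14 within replicates 1 to 3 alone, against 4.87% of all genes.

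Dex on top of S961 was compared with S961 alone, in groups that do not hold the fed vehicle mice. Of 31 genes, 0 rose and 0 fell in limma's test, against 1.04% and 0.871% of all genes, and 0 had an unadjusted p under 0.05, against 12.1% of all genes. Cd5l was at 15.8, 17.3, 18.9, and 21.2 RPKM with both and at 21.9, 20.1, 12.8, and 15.6 with S961 alone, a log2 fold change of 0.08 (95% interval -0.31 to 0.46). The corresponding values were -0.09 for Mrc1 (-0.38 to 0.20) and 0.00 for Cybb (-0.35 to 0.35). The median of the 31 was 0.11 and the groups overlapped for each gene, against 2.12% of all genes higher and 4.74% lower without overlap. In the same mice Tsc22d3 rose by 1.30 and Fkbp5, another glucocorticoid-induced gene, by 0.95. Nfkbia, an inhibitor of NF-κB, rose by 0.98 and Id3 fell by 0.98.

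**Figure D2:**
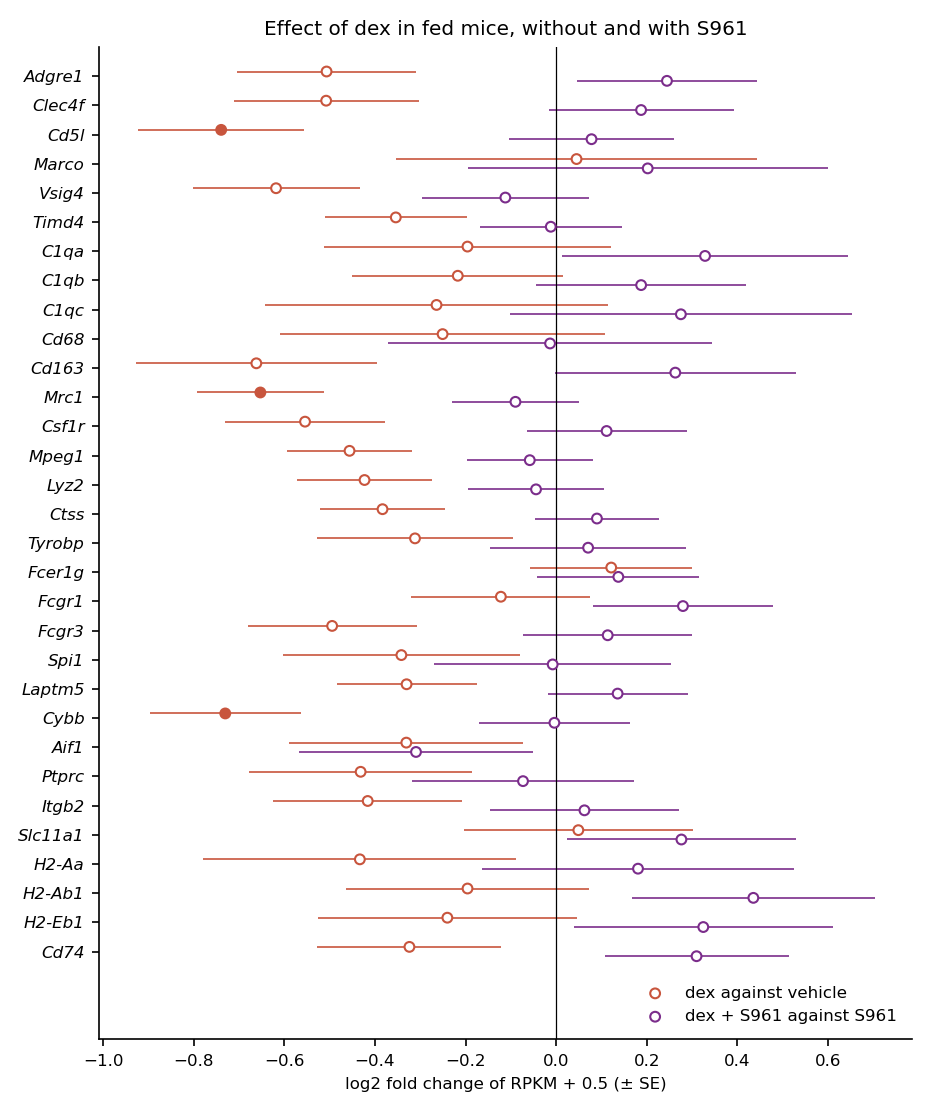
Log2 fold change of each of the 31 genes tested (± SE) with dex against vehicle and with dex and S961 against S961 alone, in fed mice (n = 4 per group). Filled points passed an adjusted p of 0.05: Cd5l, Mrc1, and Cybb with dex against vehicle, and 0 with dex on top of S961.

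The difference between both dex effects was tested in the same fit, a test chosen after the values were seen. It passed for 0 of 31 genes and for 0 of all 11251 genes in limma, of which 513 had an unadjusted p under 0.05. Of the 31 genes, 11 were under that threshold, and all 31 differences were below 0. The fed vehicle and S961 groups enter each of them. For Cd5l the difference was -0.82 (SE 0.26), for Mrc1 -0.56 (SE 0.20), and for Cybb -0.73 (SE 0.24), each with an adjusted p of 0.9997.

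With GR removed from hepatocytes, 0 of 31 genes rose and 0 fell in limma's test, against 4.46% and 2.22% of 11649 genes. At an unadjusted p under 0.05, 3 were higher and 2 lower, or 5 of 31 against 20.1% of all genes, so their number did not exceed the background. The median log2 fold change of the 31 was -0.20, with 24 below 0, and that of all genes was 0.08. The 3 genes higher at the unadjusted threshold were class II genes, which are described for their values in each library. H2-Ab1 was at 6.05, 4.55, 8.51, and 4.72 RPKM with AAV-GFP and at 14.6, 10.8, 9.88, and 5.79 with AAV-CRE. The first 3 CRE values lay above every GFP value and the last one within them, a log2 difference of 0.71 (SE 0.26, limma adjusted p = 0.14). Cd74 was at 13.8, 16.4, 26.3, and 15.1 RPKM with AAV-GFP and at 41.1, 31.3, 35.3, and 16.3 with AAV-CRE, a log2 fold change of 0.74 (SE 0.27, adjusted p = 0.15). H2-Aa and H2-Eb1 had log2 fold changes of 0.62 and 0.64. Without CRE replicate 4, H2-Ab1 and Cd74 passed, at 0.94 and 1.02, against 3.6% of all genes higher in that fit. Marco, at -0.91 (adjusted p = 0.17), and Lyz2, at -0.34 (adjusted p = 0.19), were the genes lower at an unadjusted p under 0.05. Of other lists, Id3 (1.92) and the stellate cell gene Lrat (0.47) rose, and C6 (-0.94), a complement gene that hepatocytes also express, Cps1 (-0.90), a hepatocyte gene, and the glucocorticoid-induced Fkbp5 (-2.64), Tsc22d3 (-1.81), and Per1 (-0.84) fell.

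Mpeg1 split the same libraries in another way. It was at 33, 28.3, 8.24, and 33.1 RPKM with AAV-GFP and at 11.1, 8.94, 8.07, and 41.2 with AAV-CRE, so that GFP replicate 3 and CRE replicate 4 each lay with the other group, and the log2 fold change was -0.71 (limma adjusted p = 0.52). The summed level of 9 genes of MHC class I presentation was 3485, 2837, 1921, and 3694 RPKM with AAV-GFP and 2110, 1790, 2076, and 3483 with AAV-CRE, with the same 2 libraries apart. So were the sums of 12 type I interferon-stimulated genes, a list added after these values were seen, at 608, 547, 226, and 674 RPKM with AAV-GFP and 262, 211, 216, and 799 with AAV-CRE. The sum of the class II genes had the opposite order, at 29.6, 29.7, 50.9, and 28.5 RPKM with AAV-GFP and 81.9, 59.3, 61.8, and 31.7 with AAV-CRE. GFP replicate 3 was thus the highest of its group for class II and the lowest for Mpeg1, and CRE replicate 4 the reverse. Whether these levels share a source was not tested.

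**Figure D3:**
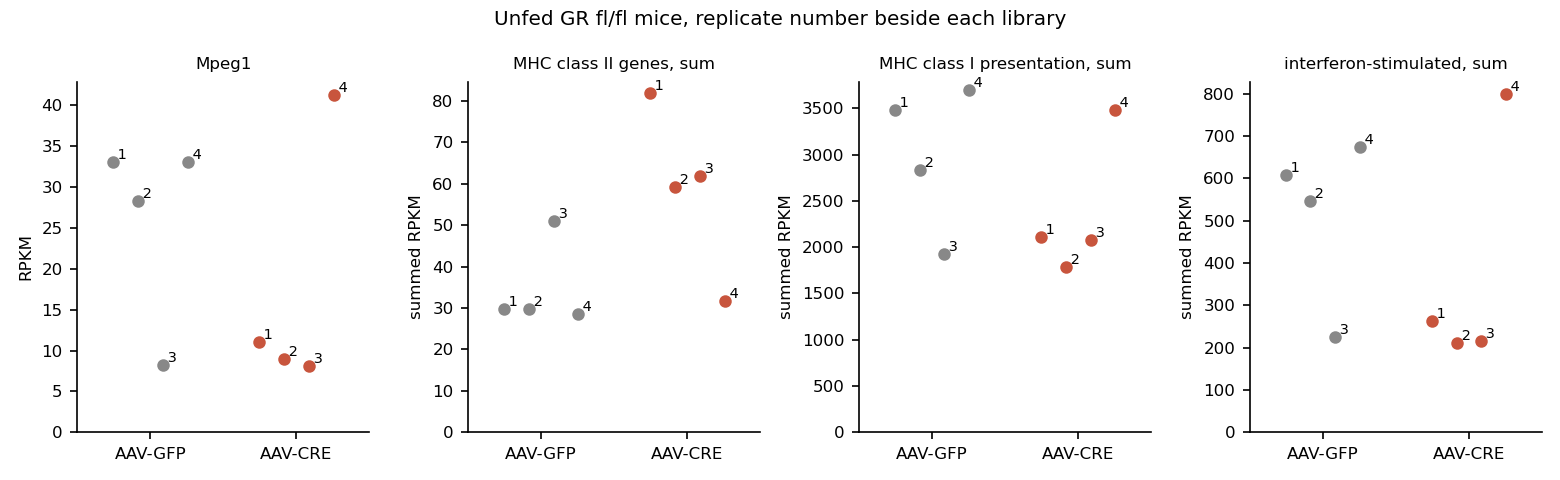
RPKM of Mpeg1 and summed RPKM of the class II genes, of 9 class I presentation genes, and of 12 interferon-stimulated genes in unfed GR fl/fl mice, with 1 point per mouse and the replicate number beside it. GFP replicate 3 (Mpeg1 at 8.24 RPKM) and CRE replicate 4 (41.2 RPKM) lie with the other group in each panel.

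In fed, dex-treated L-IRSdKO livers, 8 of 31 genes were higher and 0 lower than in the floxed controls, against 9.06% and 8.31% of 12966 genes. Mrc1 was at 25, 27.3, 22.6, and 22.7 RPKM in L-IRSdKO and at 11.3, 13.7, 12.4, and 17.5 in controls. Every knockout value was above every control value, and the log2 fold change was 0.82 (SE 0.14, limma adjusted p = 0.0066). Cd163 was at 28.6, 29.8, 33.2, and 22.3 RPKM against 15.4, 16.6, 10.1, and 17.8, a difference of 0.92 (SE 0.18, adjusted p = 0.013). Spi1, which encodes PU.1, was higher by 0.86, and Timd4, Slc11a1, a metal transporter of phagosomes, Ctss, Clec4f, and C1qa by 0.44 to 0.64. Marco had the largest log2 fold change, 1.07, with an SE of 0.63 (adjusted p = 0.27). The groups did not overlap for the 8 called genes, against 12.1% of all genes higher and 9.58% lower without overlap. The class II genes had log2 fold changes of 0.34 to 0.57, and 0 of 4 passed.

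The calls in L-IRSdKO numbered 14 without control replicate 4, against 6.61% of all genes, and 6 without control replicate 2, against 6.33%. Without control replicate 3 there were 3, against 6.08%, and without knockout replicate 2, 3, or 4 also 3, against 4.22%, 4.63%, and 4.59%. Without control or knockout replicate 1 there were 5, against 6.35% and 11.7%. Mrc1 passed in all 18 alternative fits and Cd163 in 17. Genes of other cells were higher as well: 8 of 10 sinusoidal endothelial genes, led by Lyve1 at 1.47, Cdh5 at 0.95, and Pecam1 at 0.65, and 3 of 7 stellate cell genes (Rgs5, Colec11, and Dcn), with summed endothelial levels of 243 to 284 RPKM against 182 to 212. Of 12 further Kupffer cell genes 3 were higher, Cd14 at 1.09, Cd38 at 0.83, and Msr1 at 0.69, and 1 was lower, C6 at -2.10. The sum of that list was 360 to 492 RPKM in L-IRSdKO and 482 to 499 in controls. It includes C6 and Id3, which hepatocytes also express, whereas 8 of the 12 genes were above 0, with a median of 0.18. The sum of the 6 Kupffer cell markers was 258 to 330 RPKM in L-IRSdKO and 145 to 269 in controls. Of 8 genes of recruited and lipid-associated macrophages, Lpl (2.22) and Cd9 (1.59) were higher and Spp1 (-1.66) and Trem2 (-1.07) lower. Of the class I presentation genes, 4 of 9 were lower, Psmb9 at -0.98, Psmb8 at -0.84, H2-K1 at -0.27, and H2-D1 at -0.21. Zbtb46 of the dendritic cell list (0.83) and Nfkbia (0.59) were higher, and Krt7 of cholangiocytes (-1.14) and Ttr of hepatocytes (-0.45) lower. Their part in the result was not tested.

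The obesity experiment compared the diets in each feeding state. In unfed mice, 1 of 31 genes was higher in obese livers and 2 were lower, against 3.52% and 1.7% of 11434 genes. The number higher did not exceed the background. At an unadjusted p under 0.05 there were also 1 higher and 2 lower, against 22.9% of all genes in either direction. Cd163 (NM_053094, start at 124254669 on chromosome 6) was at 5.66, 3.44, and 4.68 RPKM in lean unfed mice and at 1.94, 1.96, and 2.16 in obese unfed mice. The obese values were all under the lean ones and close to each other, a difference on the log2 scale of -0.99 (SE 0.17, limma adjusted p = 0.013). Mrc1 was at 8.03, 6.66, and 7.51 RPKM in lean and at 5.55, 4.98, and 4.53 in obese unfed mice, lower in each obese mouse, by -0.52 (SE 0.10, limma adjusted p = 0.018). Mpeg1 (NM_010821, start at 12535269 on chromosome 19) was at 7.88, 8.57, and 8.48 RPKM in lean and at 12.5, 16, and 18.4 in obese unfed mice. Its obese values were all above the lean ones, and it was 0.86 higher (SE 0.20, limma adjusted p = 0.036).

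Cd163 passed without any single library, whereas Mrc1 did not without obese replicate 3, lean replicate 1, or lean replicate 3, and Mpeg1 not without obese replicate 2 or 3 or any lean replicate. With the lean and obese unfed mice fitted alone, 0 of the 3 passed. Mpeg1 also did not pass after median-ratio scaling or quantile normalization. Of the 6 Kupffer cell markers 0 passed, and of 12 further Kupffer cell genes 1 was lower, Cd38 at -0.52, and 0 were higher. Clec4f was at 19.4 ± 4.1 RPKM in obese and 21.1 ± 3.8 in lean unfed mice (SD, n = 3), Adgre1 at 2.29 ± 0.816 and 2.58 ± 0.48, and the median log2 fold change of the 31 was -0.02, against 0.07 for all genes. The class II genes had log2 fold changes of 0.53 to 0.79 and 0 of 4 passed. H2-Ab1, for example, was at 4.5, 5.03, and 8.3 RPKM in lean and 6.83, 14.1, and 11.2 in obese unfed mice, with an overlap and an adjusted p of 0.27.

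Beside these 3 genes, 8 of 10 sinusoidal endothelial genes were lower in obese unfed mice, led by Lyve1 at -1.04, Clec4g at -0.78, and Gpr182 at -0.71, and their summed level was 60.2 to 79.4 RPKM against 106 to 126. Their part in the lower Cd163 and Mrc1 was not tested. Irf1, an interferon-induced factor, was higher by 0.83, and Tap1, the peptide transporter of class I presentation, by 1.00. The glucocorticoid-induced genes Tsc22d3 and Fkbp5 were at -1.66 and -1.52, and the hepatocyte factor Hnf4a at -0.48.

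In fed mice, 0 of 31 genes were higher or lower in obese livers in limma's test, against 0.289% and 0.21% of all genes, and 1 had an unadjusted p under 0.05, against 20% of all genes. This was Mpeg1, at 6.75, 9.2, and 6.9 RPKM in lean and 8.54, 13.8, and 14.9 in obese fed mice, a log2 fold change of 0.64 (adjusted p = 0.13). The groups overlapped. Mrc1 and Cd163 differed by 0.03 and 0.08. Of the 31 log2 fold changes 30 were above 0, with a median of 0.23 against 0.01 for all genes. The groups overlapped for each of the 31, against 17.8% of all genes higher and 14.9% lower without overlap.

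Cd163 and Mrc1 were also the genes that passed with the meal in lean mice. There 0 rose and 2 fell, against 16.1% and 7.28% of all genes, so the number called did not exceed the background. At an unadjusted p under 0.05 there were also 0 higher and 2 lower, against 36.3% of all genes. The median log2 fold change of the 31 was -0.25, with 26 below 0, and that of all genes was 0.08. Without overlap, 1 gene was higher and 11 were lower, against 29% and 14.3% of all genes. Cd163 was at 2.48, 2.23, and 1.62 RPKM in lean fed mice, each under the lowest unfed value, and fell by 0.96 (SE 0.17, limma adjusted p = 0.0036). Mrc1 was at 4.96, 5.03, and 4.18 RPKM and fell by 0.60 (SE 0.10, limma adjusted p = 0.0025). Both passed in all 17 alternative fits. Of 10 sinusoidal endothelial genes 7 were lower too, led by Oit3 at -0.63, Stab2 at -0.62, and Stab1 at -0.60, with a summed level of 78.2 to 85 RPKM against 106 to 126 in unfed mice. Their part in the result was not tested. Id3 (2.45), Nr1h3 (0.31), Irf1 (0.89), Tap1 (0.49), and Icam1 (0.69) rose, and Cd38 (-0.35), Nfkbia (-1.12), Reln of stellate cells (-0.54), and the glucocorticoid-induced Per1 (-1.25) and Tsc22d3 (-1.02) fell. In obese mice 0 of 31 genes changed with the meal in limma's test, against 5.17% and 2.48% of all genes, and 0 had an unadjusted p under 0.05, against 25.2% of all genes. Of the other lists, only Tapbp of class I presentation passed, at -0.30. Cd163 was at 1.83, 2.42, and 2.5 RPKM in obese fed mice and Mrc1 at 4.89, 4.97, and 4.63.

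The test of the difference between both meal effects passed for 0 of the 31 genes, against 0.42% and 0.324% of all genes. The difference was 1.07 for Cd163 (SE 0.25, limma adjusted p = 0.077) and 0.55 for Mrc1 (SE 0.14, adjusted p = 0.11), and these and Spi1, at 0.67, were the 3 genes with an unadjusted p under 0.05, against 15% of all genes. Of other lists, Tsc22d3 (1.67) and Irf1 (-0.99) passed. The lean unfed group enters the meal, diet, and difference values of both genes. It was the highest of the 4 groups for each.

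**Figure D4:**
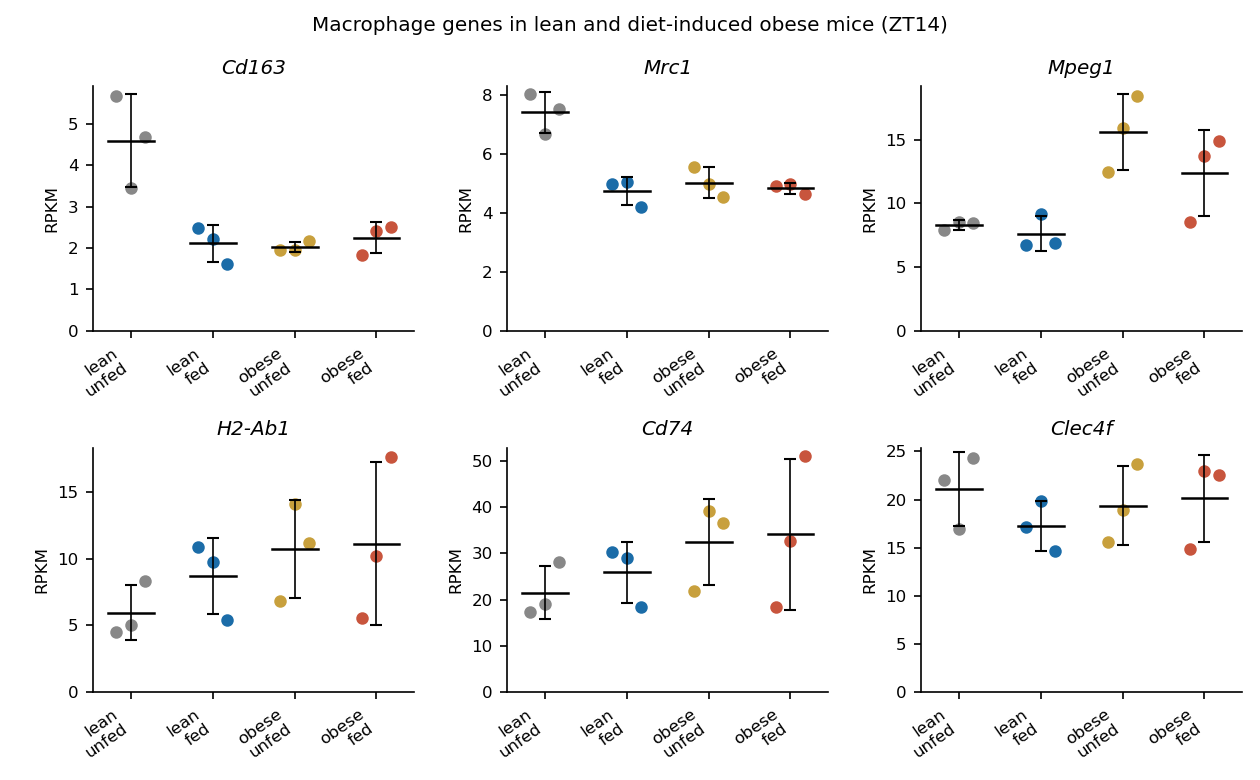
RPKM of 6 genes in lean and obese mice at ZT14, with 1 point per mouse and the mean ± SD of each group (n = 3). For Cd163 and Mrc1 the lean unfed mice (5.66, 3.44, and 4.68 RPKM for Cd163) lie above the 3 other groups, and for Mpeg1 the obese unfed mice lie above both lean groups.

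In uninjected mice, 0 of 31 genes changed from ZT10 to ZT14 without food in limma's test, against 1.98% of 10907 genes higher and 6.97% lower, and 0 changed with the meal, against 4.87% and 1.9%. In each comparison 1 gene had an unadjusted p under 0.05, against 26.4% and 27.7% of all genes, and it was Cd163 both times. It was at 3.15 and 1.87 RPKM at ZT10, 4.39 and 4.59 at ZT14 without food, and 2.78 and 3.03 after the meal. Both unfed ZT14 mice were above the others, with log2 fold changes of 0.76 over time (SE 0.19, limma adjusted p = 0.053) and -0.55 with the meal (SE 0.19, adjusted p = 0.12). Without ZT10 replicate 1 the rise over time passed. Of other lists, Lyve1 (1.46), Hnf4a (0.56), Fkbp5 (1.19), and Tsc22d3 (1.11) rose over time, Psmb9 (-1.12) and Tap1 (-0.83) fell, and with the meal Id3 (1.28) and Irf1 (0.63) rose and Nfkbia (-1.11) fell. Mrc1 was at 13.7 and 14.1 RPKM at ZT14 without food and 11.3 and 12.5 after the meal, a log2 fold change of -0.21 (adjusted p = 0.24). The meal thus gave lower Cd163 means in lean and uninjected mice, and a higher mean in vehicle-injected mice, at 7.13 ± 1.83 RPKM fed and 3.91 ± 0.473 unfed (SD, n = 4, log2 fold change 0.76, adjusted p = 0.12). Only the value in lean mice passed the test, and the difference between experiments was not tested.

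**Figure D5:**
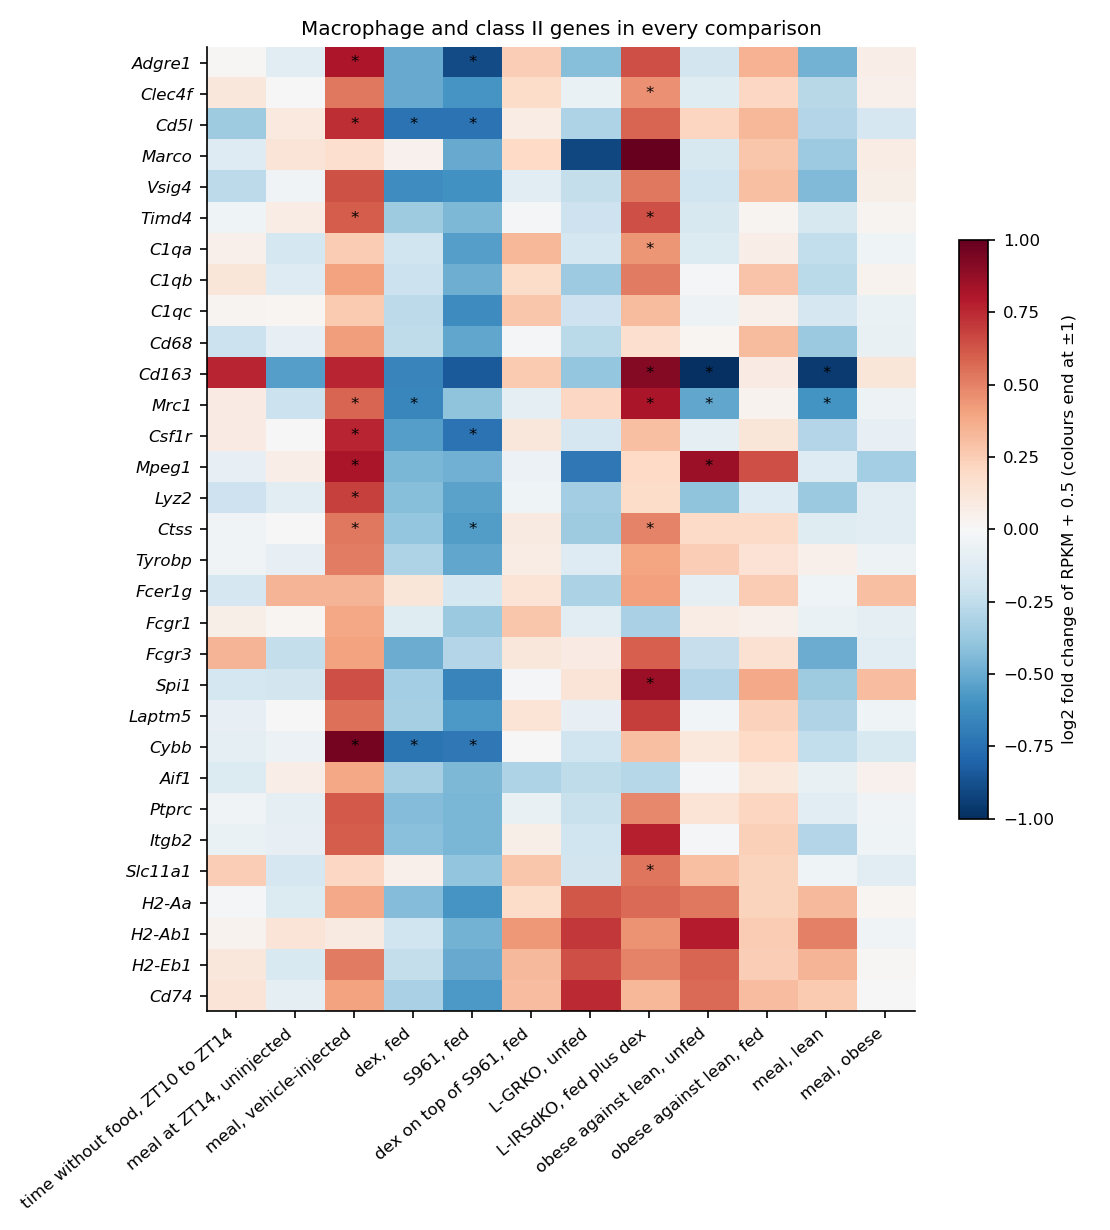
Log2 fold change of each gene tested (rows, by role) in the comparisons of 2 groups (columns), with a colour scale centred at 0 and marks where the adjusted p was under 0.05. The vehicle-injected meal column is above 0 in 31 of 31 genes and the S961 column below 0 in 31 of 31, and both share the fed vehicle mice.

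GR and FOXO1 peaks, from ChIP-seq of unfed liver, and DNase-hypersensitive sites (DHSs) were placed against the start of each gene on mm9. A GR peak lay within 50 kb of 6 of the 32 genes, or 18.8% (exact binomial 95% interval 7.21 to 36.4%), and of 33.8% of 19783 genes in all. For FOXO1 it was 7 of 32, or 21.9%, and 35.4% of all genes, and for DHSs 32 of 32 and 88.4%. The genes with a GR peak were Mpeg1, Fcer1g, Cd68, Ptprc, Itgb2, and Slc11a1. Cd5l, Mrc1, Cybb, Cd163, and the class II genes had none within 100 kb. The ChIP-seq used whole liver, so binding in macrophages alone was not measured.

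The peak closest to Mpeg1 and a peak upstream of Fcer1g, the shared γ chain of Fc receptors, are shown since these genes had a GR peak within 20 kb of the start. The capitals mark the half-site of the glucocorticoid response element, AGAACA or its reverse complement, which 27.7% of 10446 GR peaks hold. The peak of Fcer1g lies 5.83 kb upstream, at chr1:173170242-173170421, and that of Mpeg1 15.56 kb upstream, at chr19:12519619-12519798. Both sequences are given on the plus strand of mm9.
Fcer1g: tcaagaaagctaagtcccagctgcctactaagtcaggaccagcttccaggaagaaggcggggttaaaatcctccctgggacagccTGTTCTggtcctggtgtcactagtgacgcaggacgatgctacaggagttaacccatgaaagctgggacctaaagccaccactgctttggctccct
Mpeg1: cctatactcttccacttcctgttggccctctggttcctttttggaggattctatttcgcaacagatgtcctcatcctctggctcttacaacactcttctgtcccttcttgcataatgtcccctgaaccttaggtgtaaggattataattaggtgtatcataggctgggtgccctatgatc
The Fcer1g peak holds 1 half-site and the Mpeg1 peak 0. It was chosen for its half-site: Fcer1g has 4 GR peaks within 20 kb, and the closer one in an intron, 1.17 kb from the start, and those 9.45 and 10.28 kb downstream hold 0. With dex, the log2 fold changes of Fcer1g and Mpeg1 were 0.12 and -0.46 (limma adjusted p = 0.77 and 0.078).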

How the data were processed

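The liver RNA-seq values are RPKM, which the authors computed per RefSeq ID after alignment with STAR to mm9, and deposited for 54 libraries. Their own comparison columns, fold changes and p-values from DESeq2, were not used, and 0 columns of per-sample values were without a sample. Read totals listed in the study's supplement were not used. Of 35707 IDs, 300 had no symbol. The peak and DHS lists, called by the authors with HOMER, were used for their positions only; peaks were those found in both replicates.

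Within each experiment, log2(RPKM + 0.5) was fitted with limma 3.58.1 in R 4.3.3 as a mean per group with a trended variance, with genes under a mean of 0.5 RPKM left out, and p-values were adjusted by the Benjamini-Hochberg method over all genes tested. The fit was tested on simulated data. RPKM fixes the total of each library, so a change in abundant transcripts moves all others, and the pseudocount understates changes of low genes. The 32 genes and all lists were chosen with earlier results of these data known. Genes called with dex or in obesity are given per library. Of other lists, called genes are named where at most 5 passed, otherwise the 3 with the largest change. One called gene of these lists is not reported here. Knockout targets and glucocorticoid-induced genes served as checks of the labels. Each library is a separate mouse. Replicate numbers were not used as a block: same-numbered samples deviated together with a correlation over 0.1 in every pair only for dex on top of S961 (0.11 to 0.60), where the block changed no call. Intervals of log2 fold changes use limma's moderated degrees of freedom. Alternatives were other filters, pseudocounts, scalings, a stricter threshold, fits of the compared groups alone, and each replicate left out. A term for the library code series was also tried.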

Additional observations from a re-analysis of the deposited data

Results flagged for a closer look

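In groups of 4 mice, single libraries stood apart from the other 3 by Dixon's criterion in 23 of 278 sets of 1 gene in 1 group, or 8.27%. Chance gives about 1 in 20 for independent sets, but genes of the same libraries are not independent. CRE replicate 4 of the L-GRKO experiment was the highest of its group for Cd5l at 46.6 RPKM, C1qb at 33.2, Cd68 at 7.34, Mpeg1 at 41.2, Fcgr1 at 1.22, and Laptm5 at 8.05. In the same experiment CRE replicate 1 was lowest for Mrc1 at 9.88, and GFP replicate 1 highest for Cd163 at 13.4.

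Replicate 4 of the injected groups was highest for C1qb in fed vehicle mice at 34.5 RPKM, for Marco in unfed vehicle mice at 3.02, for Cd68 with dex at 9.57, and for Cd68 and C1qc with dex and S961 at 6.2 and 30.4. It was lowest for Mrc1 in unfed vehicle mice at 6.84 and for Cybb with S961 at 1.6. With S961, replicate 3 was lowest for Slc11a1 at 0.549, H2-Ab1 at 3.55, and Cd74 at 19. Dex replicate 1 was lowest for Adgre1 at 2.23.

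Among the L-IRSdKO mice, replicate 1 was highest for C1qc at 89.1 RPKM and H2-Eb1 at 50.04, and replicate 3 for Slc11a1 at 13.7. Control replicate 4 was highest for Itgb2 at 7.59.

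For 8 genes the meal effect in vehicle-injected mice and in lean mice pointed in opposite directions without overlap of fed and unfed mice in either experiment, against 0.486% of 11102 genes tested in both. The log2 fold changes were 0.81 and -0.47 for Adgre1, 0.76 and -0.96 for Cd163, 0.58 and -0.60 for Mrc1, 0.76 and -0.30 for Csf1r, 0.64 and -0.36 for Spi1, 0.55 and -0.30 for Laptm5, 0.95 and -0.25 for Cybb, and 0.61 and -0.30 for Itgb2. These differences were not tested, since the values come from experiments that were run and fitted apart.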

How the results depend on the processing

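Of the log2 fold changes of single genes under the alternatives, 620 kept their direction and side of the threshold, 201 lost the call, 2 gained it, and 6 changed sign. Without any filter, 5 genes were higher with the meal in vehicle-injected mice, 1 lower with S961, and 0 higher in obese unfed mice. With a mean of at least 2 RPKM, 1 was higher over time without food. Median-ratio scaling gave 1 higher over time, 3 with the meal, 1 lower with S961, and 0 higher in obese unfed mice, and quantile normalization gave the same 4 counts and 1 lower with dex. Median-ratio scaling moved the median of all genes with dex from -0.10 to 0.00, and that of the 31 genes from -0.35 to -0.26. At an adjusted p of 0.01, counts were 2 higher with the meal, 1 higher in L-IRSdKO, and 0 with dex, with S961, or in either direction in obese unfed mice. With the compared groups fitted alone, 1 was lower with the meal in uninjected mice, 4 in lean mice, and 0 with dex, with S961, or in either direction in obese unfed mice. A term for the code series gave 7 lower with dex and 10 with S961, and replicates 1 to 3 alone gave 10 and 8, with 14 higher with the meal. The cause was not tested.

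With a replicate block, 6 genes were lower with dex, 9 lower with S961, and 3 higher in L-IRSdKO; other counts stayed within 1.5 times. The correlations of same-numbered samples ran from -0.20 to 0.60. For replicate 4, which carries its own code series, they were 0.49 with dex, 0.60 with S961, and 0.51 with the meal in vehicle-injected mice. Those of replicates 1 to 3 in the same comparisons ran from -0.11 to 0.31.

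With each replicate left out in turn, counts ran from 0 to 6 lower with dex, 0 to 9 lower with S961, 2 to 12 higher with the meal in vehicle-injected mice, 3 to 14 higher in L-IRSdKO, 0 to 2 higher in L-GRKO, 0 to 1 higher and 1 to 2 lower in obese unfed mice, 0 to 1 higher with the meal in obese mice (1 without obese fed replicate 1), and 0 to 1 higher over time. Between obese and lean fed mice, the log2 fold changes without obese replicate 3 were -0.14 for H2-Aa, -0.14 for H2-Ab1, -0.075 for H2-Eb1, and -0.038 for Cd74, and without lean replicate 3 -0.04 for H2-Aa and -0.03 for H2-Ab1. Their highest values, without obese replicate 1, were 0.64, 0.66, 0.64, and 0.68, in the same order of genes. Over the alternatives, adjusted p ran from 0.0044 to 0.14 for Cd5l, 0.0031 to 0.088 for Mrc1, and 0.0038 to 0.097 for Cybb with dex, and from 0.0085 to 0.081 for Cd163, 0.0083 to 0.11 for Mrc1, and 0.014 to 0.1 for Mpeg1 in obese unfed mice. Within 20 kb, 6.25% of the 32 genes had a GR peak, and within 100 kb 43.8% had a FOXO1 peak. Counting error was not estimated from read totals, and genes near 0.5 RPKM are the least precise.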
